A study of Mus musculus with 14 samples.

Results

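Hcar2, Hcar1, Ffar1, Ffar2, Ffar3 and Ffar4 encode the hydroxycarboxylic acid and free fatty acid receptors of the mouse, a group of cell surface receptors for small and fatty acids. They were chosen by symbol, as 6 of the 55291 gene symbols with an estimated count in tibia RNA. Hcar2, Hcar1, Ffar1, Ffar2 and Ffar4 had counts in each of the 14 libraries, and Ffar3 had counts in 10 of them. The tibias came from wild-type female C57Bl/6 mice that had a sham operation (n = 3 libraries) or had the ovaries removed (OVX). After OVX the mice received phosphate-buffered saline (OVX-PBS, n = 3), the compound HA, hippuric acid (group OVX-HA, n = 3), the compound 3-3-PPA, which is 3-(3-hydroxyphenyl)propionic acid (group OVX-PPA, n = 2), or zoledronic acid, a bisphosphonate that inhibits osteoclasts (OVX-ZA, n = 3). Treatment began 2 to 4 days after surgery and lasted 8 weeks. The sources used here give neither doses nor the age of the mice, and the labels do not say what the sham mice received. Whether the libraries of a group are from different mice is not stated either, so a p-value here measures only the spread between libraries, which may be technical.

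These receptors sense carboxylic acids that arise from metabolism, the diet and gut bacteria. Hcar2 is the receptor of the ketone body 3-hydroxybutyrate and of the drug nicotinic acid, and Hcar1 is the receptor of lactate. Both couple to inhibitory G proteins, and in fat cells they restrain lipolysis. Ffar1 and Ffar4 respond to long-chain fatty acids; Ffar1 is best known from insulin-secreting cells and Ffar4 from fat cells, gut endocrine cells and macrophages. Ffar2 and Ffar3 respond to short-chain fatty acids such as acetate and propionate, and Ffar2 is known from neutrophils and other leukocytes. Hippuric acid is the glycine conjugate of benzoic acid, and 3-3-PPA carries a hydroxyl group on its ring and a propionic acid side chain, so both are small aromatic carboxylic acids.

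By the GENCODE annotation of mm10, the genes lie at 3 places in the genome. Hcar2 (ENSMUSG00000045502, chr5:123863570-123865499, minus strand) and Hcar1 (ENSMUSG00000049241, chr5:123876736-123880020, minus strand) are each a single exon and stand 11236 nt apart. Ffar2 (ENSMUSG00000051314, chr7:30818348-30823775), Ffar3 (ENSMUSG00000019429, chr7:30854330-30856178) and Ffar1 (ENSMUSG00000044453, chr7:30857390-30861564) follow one another on the minus strand, with 1211 nt between Ffar3 and Ffar1. Cd22, a B cell surface lectin, lies on the same strand, 3837 nt upstream of Ffar1. Ffar4 (ENSMUSG00000054200, chr19:38097071-38114263, plus strand) has 3 exons, and the opposite-strand gene Rbp4 lies 2365 nt from it. None of the 6 overlaps another annotated gene. No stretch of 75 nt, the read length, in a transcript of these genes occurs in a transcript of another gene, and each of the 84 member values was a whole number to within 0.01.

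RefSeq promoter windows (GRCm38.p6, 250 bases before to 50 after a start) matched 5 of the 6 receptors with 8 windows; Hcar2 was the gene not matched. The windows of 3 receptors are shown, since the levels of Hcar1 and Ffar4 followed adipocyte markers over the libraries and that of Ffar2 did not (below). They are Hcar1 (chr5:123879954-123880253, minus strand), Ffar4 (chr19:38096829-38097128, plus strand) and the most upstream start of Ffar2 (chr7:30823726-30824025, minus strand). Capitals mark matches on either strand to 4 motifs. These are AGGTCA, the core bound by many nuclear receptors (found in 16.3% of all 32851 windows), GGGCGG, the GC box (35.7%), CCAAT, bound by the factor NF-Y (37.4%), and TTTGAA, an element of cell cycle promoters (17.9%).
Hcar1: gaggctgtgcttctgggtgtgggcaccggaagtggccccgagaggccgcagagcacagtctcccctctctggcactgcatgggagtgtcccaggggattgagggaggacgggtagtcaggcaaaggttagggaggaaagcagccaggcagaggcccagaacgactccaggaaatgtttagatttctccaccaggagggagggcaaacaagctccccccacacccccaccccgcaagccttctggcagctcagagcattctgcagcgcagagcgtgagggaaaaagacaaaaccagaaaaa
Ffar4: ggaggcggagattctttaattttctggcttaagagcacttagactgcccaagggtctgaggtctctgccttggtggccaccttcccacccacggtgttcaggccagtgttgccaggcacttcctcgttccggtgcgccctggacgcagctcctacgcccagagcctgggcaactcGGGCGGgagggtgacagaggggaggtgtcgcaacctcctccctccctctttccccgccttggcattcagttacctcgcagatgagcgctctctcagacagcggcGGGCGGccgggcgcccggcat
Ffar2: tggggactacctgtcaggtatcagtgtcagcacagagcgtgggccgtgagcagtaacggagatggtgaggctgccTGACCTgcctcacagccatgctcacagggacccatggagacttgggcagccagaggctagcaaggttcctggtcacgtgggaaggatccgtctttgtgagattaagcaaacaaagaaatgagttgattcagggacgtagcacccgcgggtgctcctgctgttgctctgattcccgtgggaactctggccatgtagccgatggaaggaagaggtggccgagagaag
The Hcar1 window held none of the 4 motifs, that of Ffar4 held 2 GC boxes, and the one shown for Ffar2 held 1 AGGTCA match on the opposite strand. Of the other 3 windows of Ffar2, 2 that overlap each other each held 1 AGGTCA, 1 GC box and 1 CCAAT match and 1 held none. The matches are descriptions of letters and were tested against no measurement.

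The libraries held 11.9 to 35.4 M estimated counts (M, mega). Bone transcripts were present, as the tissue label implies: 8 of 8 osteoblast and osteocyte markers and 6 of 6 osteoclast markers passed the filter on low counts, and Col1a1 read 724 to 4974 CPM (counts per M). Libraries also held muscle and nervous tissue, and transcripts of brown fat such as Ucp1 (12.5 to 226 CPM). Mobp, a myelin gene, read 153 to 507 CPM in 12 libraries but 5.55 in OVX-PBS replicate 1 and 1.17 in OVX-HA replicate 2. Glycam1, a lymph node gene, read at least 10 CPM in sham replicate 3 and in OVX-ZA replicates 1 and 2. Differences and correlations that lean on these 5 libraries are given with and without them; leaving out the Glycam1 libraries was chosen after seeing the data. In whole tissue, fewer cells of a type and less RNA per cell cannot be told apart.

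Of the 6 receptors 5 passed the filter on low counts and could be tested, and Ffar3 did not. Levels here are CPM scaled by the trimmed mean of M values (TMM), and per kilobase of merged exon where genes are compared with each other. Ffar2 averaged 1.98 ± 0.54 CPM per kilobase over the 14 libraries (SD), Hcar1 1.96 ± 0.53, Ffar4 1.58 ± 0.47 and Hcar2 1.32 ± 0.35. Ffar1 followed with 0.477 ± 0.246 and Ffar3 with 0.0662 ± 0.0781. By GENCODE length, all 6 lay below the middle of the 21251 tested genes with a known length. Of those genes 40.2% lay below Ffar2, 40.0% below Hcar1, 35.9% below Ffar4, 33.0% below Hcar2, 18.1% below Ffar1 and 1.24% below Ffar3.

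Neighbours among the first 4 in this order differed by less than their SD over libraries. That SD is not the error of a difference between receptors read in the same libraries. The step-by-step order of Ffar2, Hcar1, Ffar4 and Hcar2 was not tested. Hcar1 lay above Hcar2 in each of the 14 libraries, by 1.16 to 2.19 times per kilobase. The place of Ffar1 depends on its gene model. GENCODE gives it 4175 nt, whereas RefSeq gives 903 nt, and with the RefSeq length, an alternative chosen after seeing the data, its level would be 2.21 CPM per kilobase, the highest of the 6.

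**Figure D1:**
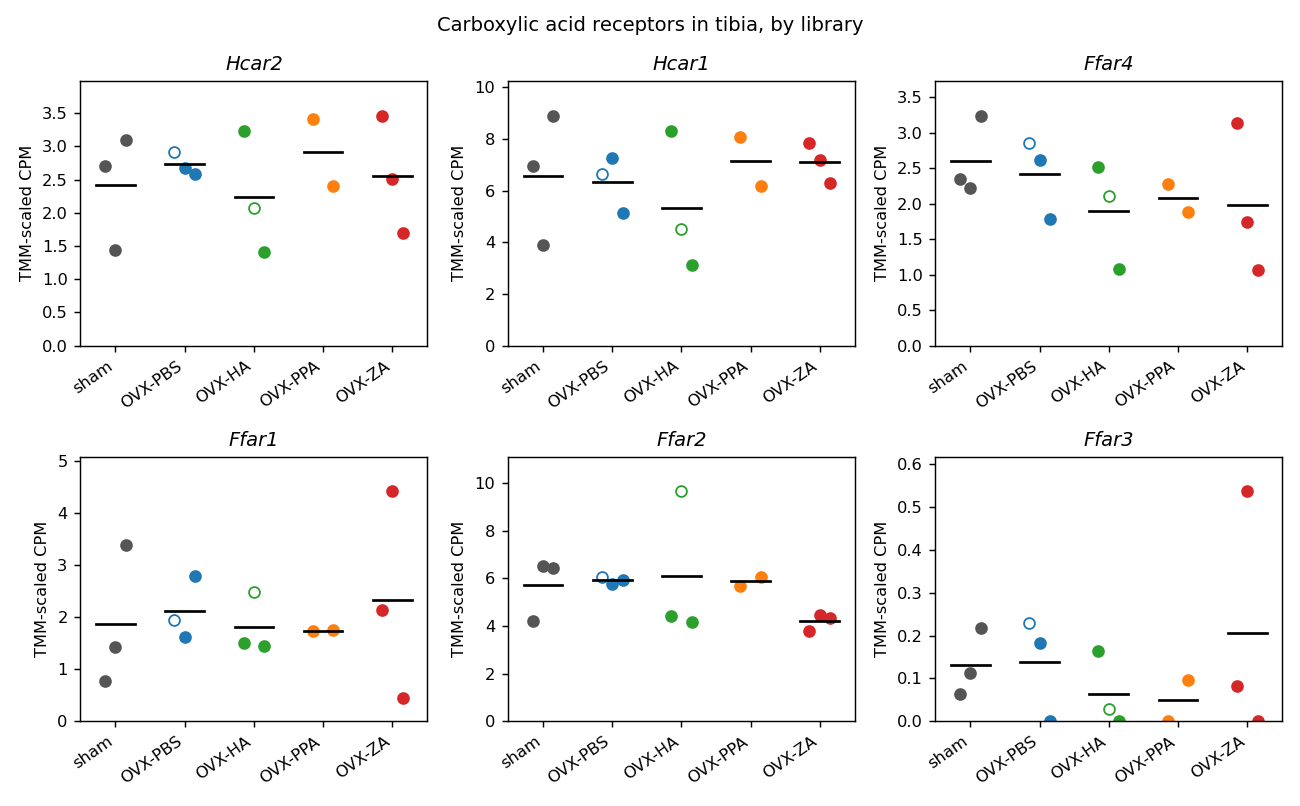
TMM-scaled CPM (y axis, each panel on its own scale from 0) of the 6 receptors in the 14 libraries, by group (x axis); points are libraries, lines are group means, and open points are the 2 libraries with Mobp under 50 CPM. In the 5 comparisons made, the groups of each tested receptor overlap except for Ffar2 in OVX-ZA (3.79 to 4.47) against OVX-PBS (5.76 to 6.06), and Ffar3 stays at or under 0.536 CPM.

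Hcar2 was present in every library at 1.41 to 3.46 CPM, from 41 to 118 counts. In sham libraries it read 2.71, 1.44 and 3.10 CPM (mean 2.42 ± 0.87, SD, n = 3), and OVX-PBS libraries read 2.92, 2.68 and 2.59 (2.73 ± 0.17, n = 3). OVX-HA libraries read 3.23, 2.08 and 1.41 CPM (2.24 ± 0.92, n = 3), OVX-PPA libraries 3.42 and 2.40 (2.91 ± 0.72, n = 2) and OVX-ZA libraries 3.46, 2.50 and 1.69 (2.55 ± 0.89, n = 3). The OVX-PBS libraries lay close together, while sham, OVX-HA and OVX-ZA each held both a low and a high library, and all groups overlapped. The CV over the 14 libraries was 26.8%, against 12.2% from counting alone at its median count.

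Hcar1, its chromosome neighbour, was read from 95 to 304 counts. Sham libraries stood at 6.93, 3.89 and 8.91 CPM (6.58 ± 2.53), OVX-PBS libraries at 6.63, 7.28 and 5.12 (6.34 ± 1.11) and OVX-HA libraries at 8.32, 4.51 and 3.11 (5.31 ± 2.69). OVX-PPA read 8.08 and 6.19 CPM (7.14 ± 1.34) and OVX-ZA 7.83, 7.19 and 6.31 (7.11 ± 0.76). The 3 lowest libraries of Hcar1 were OVX-HA replicates 3 and 2 and sham replicate 2, which were also among the 4 lowest of Hcar2. Over the 14 libraries Hcar1 and Hcar2 correlated with Pearson's r = 0.87 and Spearman's rho = 0.86 on log2 CPM, and with r = 0.87 over the 12 libraries that hold Mobp. Each point is a library, so both genes share its depth, scaling and tissue mixture. The ratio of Hcar1 to Hcar2 counts ran from 1.98 in OVX-PBS replicate 3 to 3.73 in OVX-ZA replicate 3.

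Ffar4, the third receptor with known roles in fat cells, read 2.35, 2.23 and 3.24 CPM with sham surgery (2.61 ± 0.56), 2.86, 2.62 and 1.79 after PBS (2.42 ± 0.56) and 2.52, 2.11 and 1.08 after HA (1.90 ± 0.74). It read 2.28 and 1.88 CPM after 3-3-PPA (2.08 ± 0.28) and 3.13, 1.74 and 1.07 after ZA (1.98 ± 1.05). Replicate 3 of OVX-HA and of OVX-ZA were low for Ffar4 and for Hcar2, and the groups again overlapped. Ffar4 correlated with Hcar2 with r = 0.73 and with Hcar1 with r = 0.60 over the 14 libraries.

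The 3 receptors followed the adipocyte markers over the libraries. The mean log2 CPM of 7 adipocyte markers (Adipoq, Plin1, Cidec, Lep, Fabp4, Pparg, Retn) correlated with r = 0.88 with Hcar2, 0.86 with Hcar1 and 0.67 with Ffar4, against 0.25 for Ffar1 and -0.13 for Ffar2 (n = 14 libraries). Within groups, after each group's mean was taken off, these values were 0.88, 0.94 and 0.70 for the first 3. Over the 12 libraries with Mobp, across groups, they were 0.89, 0.88 and 0.67, and over the 11 without the Glycam1 libraries 0.90, 0.85 and 0.64. A list of 5 brown fat markers led by Ucp1 correlated with r = 0.79 with Hcar2, 0.88 with Hcar1 and 0.70 with Ffar4. Within groups these values were 0.87, 0.96 and 0.65, and the 5 markers summed to 162 to 545 CPM over the libraries. Hcar2 followed Adipoq, Plin1, Cidec, Fabp4, Pparg and Retn with r of 0.82 to 0.88 each, but Lep, the leptin gene, with r = 0.28. Lep correlated with r = 0.07 with Hcar1 and 0.0006 with Ffar4.

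Macrophages and neutrophils are also known to express Hcar2. Its r was -0.11 with 8 macrophage markers and -0.37 with 11 neutrophil markers, and the cells its transcripts came from were not tested. The summed level of the 7 adipocyte markers was 488 to 1175 CPM with sham surgery, 667 to 1266 after PBS, 468 to 1138 after HA, 721 to 1161 after 3-3-PPA and 632 to 896 after ZA. No adipocyte marker was at 0 in any library. The part of fat content in the receptor levels was not tested; a fit with the adipocyte mean as a covariate is given with the comparisons as values.

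Among 14926 genes of at least 1 CPM, the patterns most like Hcar2 were those of H2-Q10, a class Ib MHC gene (r = 0.94 over 14 libraries and 0.96 over the 12 with Mobp), and of Lgals12, a galectin of fat cells (0.93 and 0.93). Acad10 (0.89 and 0.89), Tmem45b (0.89 and 0.89) and Plin1, the lipid droplet coat protein of fat cells (0.88 and 0.89), came next. For Hcar1 they were Tmem120a (0.96 and 0.96), Pck1, the enzyme of glyceride and glucose synthesis from small acids (0.95 and 0.95), and the fat cell transcription factor Pparg (0.92 and 0.93). Angptl4, a lipase inhibitor (0.92 and 0.92), and the carboxylesterase Ces1d (0.92 and 0.93) followed. For Ffar4 they were Tmem45b (0.88 and 0.88), the transcription factor Cebpa (0.87 and 0.89), Tbc1d20 (0.85 and 0.90), the uridine kinase Uck1 (0.85 and 0.86) and Prkar2b, a regulatory subunit of protein kinase A (0.84 and 0.86). The likeness is over shared libraries and was picked as the closest of many genes.

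**Figure D2:**
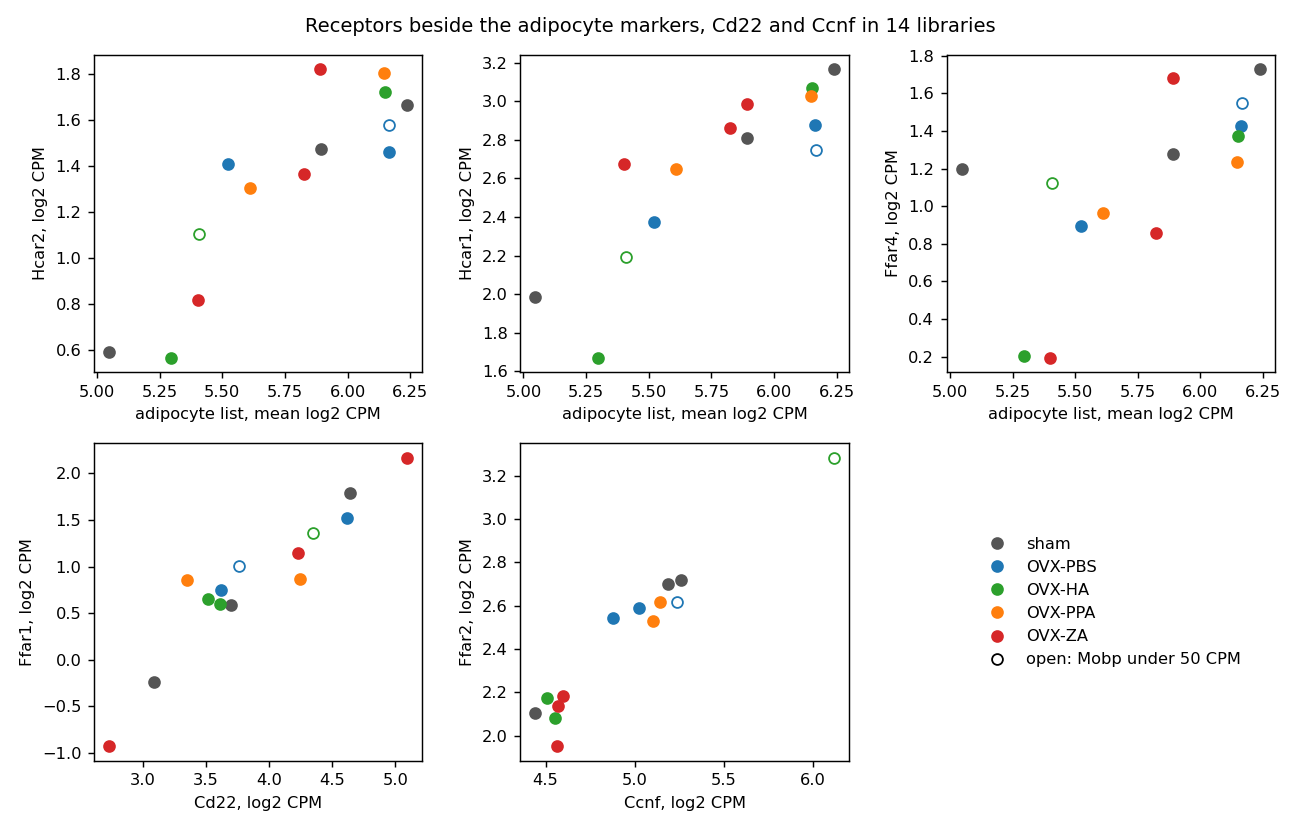
Log2 CPM of a receptor (y axis) against the adipocyte marker mean, Cd22 or Ccnf (x axis, log2 CPM) in 14 libraries, coloured by group; open points have Mobp under 50 CPM. Hcar2, Hcar1 and Ffar4 climb with the adipocyte mean (r = 0.88, 0.86 and 0.67), Ffar1 with Cd22 (0.93) and Ffar2 with Ccnf (0.97), where OVX-HA replicate 2 stands alone at the upper right.

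Ffar2 was read from 46 to 330 counts. Sham libraries stood at 4.22, 6.51 and 6.42 CPM (5.72 ± 1.29), OVX-PBS libraries at 6.06, 5.76 and 5.94 (5.92 ± 0.15) and OVX-PPA libraries at 5.70 and 6.06 (5.88 ± 0.26). OVX-HA libraries read 4.43, 9.66 and 4.16 CPM (6.08 ± 3.10), and OVX-ZA libraries 3.79, 4.47 and 4.33 (4.20 ± 0.36). OVX-HA replicate 2 held the highest value of all libraries, while the other 2 OVX-HA libraries lay among the 5 lowest. All 3 OVX-ZA libraries lay below all OVX-PBS libraries, a separation that 14.2% of all tested genes showed between these groups in one direction or the other.

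The 5 genes most like Ffar2, picked as the closest of the same 14926, were Hirip3 (r = 0.96 over 14 and 0.97 over 12 libraries), a histone chaperone, the mitotic kinase Haspin (0.96 and 0.96), the cyclin Ccnf (0.97 and 0.95), and Cdca8 (0.96 and 0.95) and Incenp (0.95 and 0.95), both subunits of the chromosomal passenger complex. Ccnf read 69.3 CPM in OVX-HA replicate 2 and 21.7 to 38.2 elsewhere, so that the library highest in Ffar2 was also the highest in Ccnf. Ffar2 correlated with r = 0.48 with the 11 neutrophil markers, 0.64 with 4 eosinophil markers, 0.55 with 4 B cell markers and 0.80 with 8 osteoblast and osteocyte markers. Over the 12 libraries with Mobp these values were 0.51, 0.55, 0.48 and 0.60, and over the 11 without the Glycam1 libraries 0.55, 0.71, 0.62 and 0.91. Spearman's rho with the osteoblast and osteocyte list was 0.56 over 14 libraries and 0.41 over the 12. Within this list, r over the 12 libraries was 0.62 to 0.71 with Bglap, Col1a1, Dmp1 and Phex. It was -0.03 to 0.08 with Alpl, Ibsp, Mepe and Sost. The r of Ffar2 with 6 nervous system markers was -0.59 over 14 libraries and -0.05 over the 12. The summed neutrophil markers read 2667 to 5985 CPM with sham surgery, 2695 to 5070 after PBS, 2546 to 4601 after HA, 2118 to 5623 after 3-3-PPA and 2564 to 3221 after ZA, and their part in the Ffar2 level was not tested.

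Ffar1 varied most among the 5 testable receptors, with a CV of 51.6% over the libraries against 13.9% from counting alone. Sham libraries read 0.774, 1.44 and 3.39 CPM (1.87 ± 1.36), OVX-PBS libraries 1.94, 1.61 and 2.80 (2.12 ± 0.61) and OVX-HA libraries 1.51, 2.49 and 1.44 (1.81 ± 0.59). The OVX-PPA libraries read 1.74 and 1.75 CPM (1.74 ± 0.01) and the OVX-ZA libraries 2.14, 4.42 and 0.454 (2.34 ± 1.99). OVX-ZA held both the highest and the lowest library, which were 9.75 times apart. The highest 2 libraries, OVX-ZA replicate 2 and sham replicate 3, were also the highest 2 in Glycam1.

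The closest patterns to Ffar1 were those of H2-Ob (r = 0.96 over 14 and 0.97 over 12 libraries), an MHC class II chaperone chain of B cells, its upstream neighbour Cd22 (0.93 and 0.94) and the IgD heavy chain gene Ighd (0.93 and 0.92). The lymphocyte homing receptor Ccr7 (0.91 and 0.92) and the low-affinity IgE receptor Fcer2a (0.90 and 0.90) followed. Its r was 0.70 with 4 B cell markers and 0.72 with 3 lymph node markers, and 0.76 and 0.93 within groups. Over the 11 libraries without the Glycam1 libraries, r was 0.93 with H2-Ob, 0.89 with Cd22, 0.88 with Ighd, 0.86 with the B cell markers and 0.56 with the lymph node markers. Ffar1 counts were 6.92% (OVX-ZA replicate 3) to 17.2% (OVX-PPA replicate 1) of the Cd22 counts of the same library. Whether the Ffar1 reads come from Ffar1 transcripts or from transcripts that run on from Cd22 was not tested. Pancreatic islet transcripts were at or near 0: Ins1 and Ins2 had no count in any library, and the 4 islet markers summed to at most 0.0585 CPM.

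The summed B cell markers read 43.6 to 101 CPM with sham surgery, 93.4 to 170 after PBS, 81.4 to 140 after HA, 70.3 to 133 after 3-3-PPA and 48.2 to 128 after ZA. The 3 lymph node markers summed to at most 91.8 CPM with sham surgery and 15.3 to 105 after ZA, against 15.9 to 28.8 in the other groups. Among these, Glycam1 was at 0 in 2 libraries. The part of lymph node tissue in the Ffar1 level was not tested.

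Ffar3 was close to the detection limit, with 45 counts in all. Its counts were 2, 4 and 6 in the sham libraries, 4, 6 and 0 after PBS, 6, 1 and 0 after HA, 0 and 3 after 3-3-PPA, and 1, 12 and 0 after ZA. The 4 libraries without a count allow levels of up to 0.0800 to 0.163 CPM (3 counts per library, counting error only). The highest library, OVX-ZA replicate 2, read 0.536 CPM, and it was also the highest in Ffar1. In a fit without the filter on low counts (37749 genes), Ffar3 differed by -0.07 ± 1.20 (log2, SE) in OVX-PBS against sham, and against OVX-PBS by -0.84 ± 1.30 after HA, -1.02 ± 1.59 after 3-3-PPA and 0.82 ± 1.22 after ZA. After HA it differed from 3-3-PPA by 0.18 ± 1.65, and none of the 5 passed (unadjusted p = 0.510 to 0.952, edgeR).

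**Figure D3:**
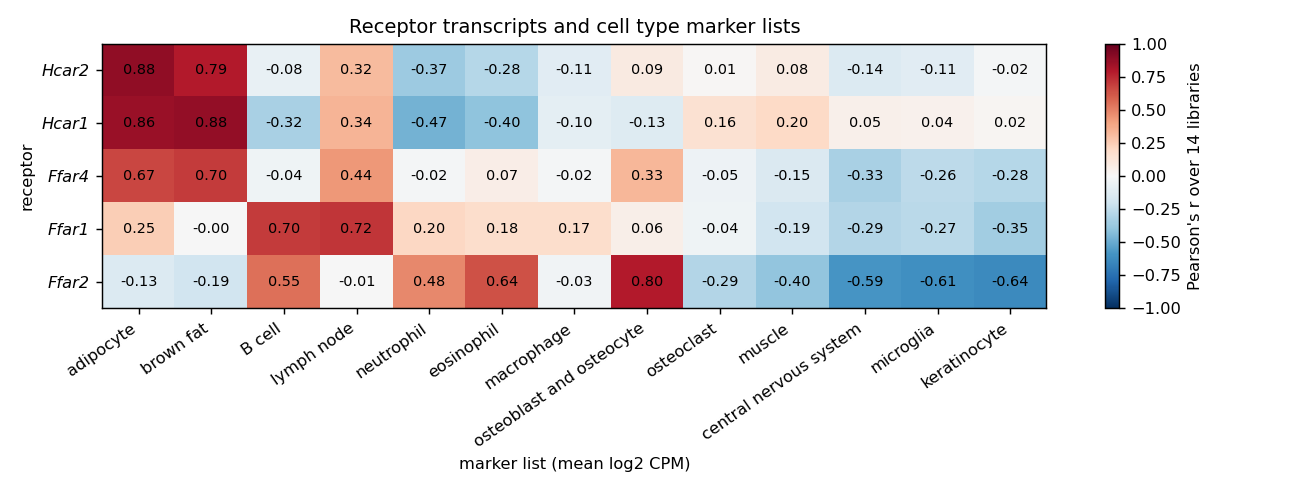
Pearson's r over 14 libraries between the log2 CPM of the 5 testable receptors (rows) and the mean log2 CPM of 13 cell type marker lists (columns); red is positive and blue negative. Hcar2, Hcar1 and Ffar4 share high values with the adipocyte and brown fat lists (0.67 to 0.88), Ffar1 with the B cell and lymph node lists (0.70 and 0.72) and Ffar2 with the osteoblast and osteocyte list (0.80).

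The first comparison asks whether loss of the ovaries was accompanied by a difference in the receptors. In OVX-PBS against sham, 0 of 5 receptors passed a false discovery rate (FDR) of 0.05 in the edgeR quasi-likelihood test, beside 0% of all 21761 genes tested. At an unadjusted p under 0.05 there were 0 of 5 receptors and 594 genes (2.73%). Hcar2 differed by a log2 of 0.18 ± 0.36 (SE; 95% interval -0.61 to 0.96), Hcar1 by -0.05, Ffar1 by 0.20, Ffar2 by 0.05 and Ffar4 by -0.11 (adjusted p = 0.946 to 0.990, edgeR). The groups overlapped for each of the 5, as they did for all but 7.63% of genes. Without the 3 libraries with Glycam1 of at least 10 CPM, chosen after seeing the data, the difference of Ffar1 was 0.94 (adjusted p = 0.781, edgeR).

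The next 3 comparisons set each compound against the same 3 OVX-PBS libraries, so they share their controls. In OVX-HA, 0 of 5 receptors passed the test (0% of all genes; 0 receptors and 319 genes, 1.47%, at an unadjusted p under 0.05). Hcar2 differed by -0.28 ± 0.36 (95% interval -1.06 to 0.50), which is a fold of 0.825 with an interval of 0.480 to 1.42. Over 14 alternative ways of fitting (listed below) the Hcar2 difference ran from -0.64 to -0.035. Its smallest unadjusted p was 0.121, without OVX-HA replicate 1 (edgeR). Hcar1 differed by -0.25, Ffar1 by -0.23, Ffar2 by 0.04 and Ffar4 by -0.33 (adjusted p = 1.00 for each, edgeR), and 0 of 5 were free of overlap (4.08% of genes). The Ffar2 value rested on OVX-HA replicate 2: without it the difference was -0.47 (unadjusted p = 0.0284, adjusted p = 0.380, edgeR), and without both libraries low in Mobp it was -0.48 (adjusted p = 0.682, edgeR). The Hcar1 value was -0.73 without OVX-HA replicate 1 (unadjusted p = 0.0466, adjusted p = 1, edgeR) and 0.02 without OVX-HA replicate 3.

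In OVX-PPA, with 2 libraries, 0 of 5 receptors passed (0% of all genes; 0 receptors and 408 genes, 1.87%, at an unadjusted p under 0.05). Hcar2 differed by 0.09 ± 0.40 (95% interval -0.79 to 0.96), Hcar1 by 0.17, Ffar1 by -0.29, Ffar2 by -0.01 and Ffar4 by -0.22 (adjusted p = 1.00 for each, edgeR). None of the 5 was free of overlap, against 20.4% of genes.

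In OVX-ZA, 0 of 5 receptors passed (0% of all genes; 0 receptors and 731 genes, 3.36%, at an unadjusted p under 0.05). Ffar2 had the largest difference, -0.49 ± 0.29 (95% interval -1.13 to 0.15; unadjusted p = 0.118, adjusted p = 0.899, edgeR). Over 14 alternative ways of fitting (listed below) this difference ran from -0.55 to -0.41. Its smallest unadjusted p was 0.0188, with the compared groups alone (edgeR), and no alternative passed the FDR. Ffar2 was the 1 receptor of 5 whose groups did not overlap, as for 14.2% of all genes in this comparison. Hcar2 differed by -0.11 ± 0.37, Hcar1 by 0.16, Ffar1 by 0.14 and Ffar4 by -0.32 (adjusted p = 0.899 to 0.970, edgeR). Ffar1 turned to -0.81 without OVX-ZA replicate 2, and to -2.22 without the 3 libraries with Glycam1, which left 1 library in OVX-ZA (unadjusted p = 0.00447, adjusted p = 0.989, edgeR). The libraries left out include the 2 highest in Ffar1. Without those libraries Ffar4 differed by -1.16 and Hcar2 by -0.68.

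Hippuric acid and 3-3-PPA were then compared with each other, at doses not given. None of the 5 receptors passed (0% of all genes; 0 receptors and 260 genes, 1.19%, at an unadjusted p under 0.05) and none was free of overlap (10.3% of genes). OVX-HA minus OVX-PPA was -0.37 ± 0.40 for Hcar2 (95% interval -1.24 to 0.51), -0.42 ± 0.39 for Hcar1 (-1.26 to 0.43), 0.06 for Ffar1, 0.05 for Ffar2 and -0.12 for Ffar4 (adjusted p = 1 for each, edgeR). The intervals of Hcar2 and Hcar1 take in folds from 0.417 to 1.42, so a difference of that size between the compounds is neither shown nor bounded more narrowly. Over 13 alternative ways of fitting, the Hcar2 difference ran from -0.76 to -0.10. Without OVX-HA replicate 1, Hcar1 differed by -0.93, and without OVX-HA replicate 2, Ffar2 differed by -0.49 (unadjusted p = 0.0236 and 0.0341, adjusted p = 1 and 0.946, edgeR).

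**Figure D4:**
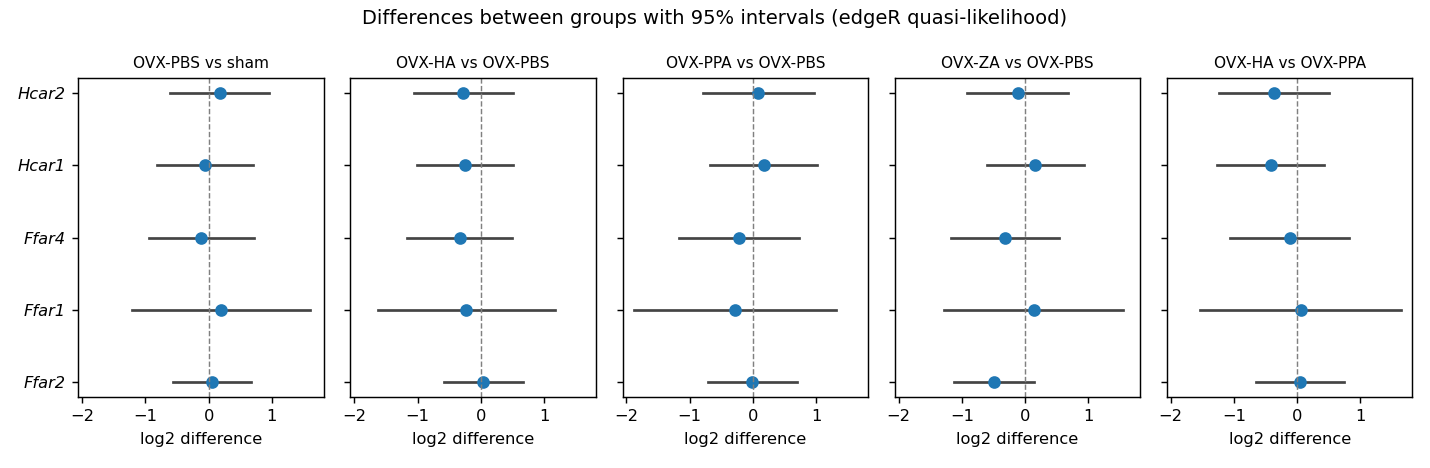
Log2 differences (x axis) of the 5 testable receptors in the 5 comparisons, with 95% intervals from the edgeR quasi-likelihood fit; the dashed line is 0. Every interval spans 0, those of Ffar1 are the widest, and Ffar2 in OVX-ZA against OVX-PBS (-0.49, -1.13 to 0.15) lies farthest from 0.

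A joint test over the 5 groups called 0 of 5 receptors (unadjusted p = 0.422 to 0.966, edgeR) and 1 of all genes (0.0046%), the osteoclast fusion gene Ocstamp. At an unadjusted p under 0.05 it gave 0 receptors and 403 genes (1.85%). Without OVX-HA replicate 2 the joint test of Ffar2 gave an unadjusted p of 0.0434 (edgeR), which did not pass the FDR. DESeq2 called 0 of the 5 receptors in each comparison as well. When the adipocyte mean of each library was added to the fit as a covariate, after seeing the data, the SE of Hcar1 in OVX-PBS against sham went from 0.35 to 0.16. In the same fit OVX-HA minus OVX-PBS was -0.05 for Hcar2 and -0.01 for Hcar1, against -0.28 and -0.25 without the covariate. Hcar1 in OVX-ZA then differed by 0.42 ± 0.17 (unadjusted p = 0.0276, adjusted p = 0.933, edgeR).

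Genes around the receptors were described by lists, in which no member passed the FDR in any of the 5 comparisons. Of 14 other metabolite receptors 10 could be tested. The most abundant were the prostaglandin E receptor Ptger4 (8.00 CPM), Gpr132 (5.56) and Gpr35 (4.08), while Oxgr1, Gpbar1, Gpr119 and Gpr31b averaged at most 0.100 CPM and were not tested. Their median log2 difference was -0.07 in OVX-HA and -0.19 in OVX-PPA, each against OVX-PBS, with 2 of 10 above 0 in both; the medians of all genes were 0.01 and -0.02. It was 0.08 after ZA against PBS (6 of 10 above 0), 0.04 for HA against 3-3-PPA (6 of 10) and -0.06 for OVX-PBS against sham (5 of 10), beside medians of all genes of -0.04, 0.02 and 0.01.

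The signalling partners were abundant. All 26 genes of the G protein list were tested, led by the inhibitory subunit Gnai2 (249 CPM), the arrestin Arrb1 (184) and the receptor kinase Grk2 (174). Their medians lay between -0.03 and 0.05 in the 5 comparisons. Gnai2 differed by -0.02 in OVX-HA and -0.16 in OVX-ZA, each against OVX-PBS. The 10 prostaglandin synthesis genes, which act downstream of Hcar2 in skin, were led by Ptgds (228 CPM), Ptges3 (83.7) and Ptges2 (23.7), with medians from -0.11 to 0.07. Ptgds is also abundant in brain membranes.

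Lipolysis, the pathway that Hcar2 and Hcar1 restrain in fat cells, was represented by 10 genes, all tested. They hold lipases beside a fatty acid carrier and the lipid droplet gene Plin1, so a shared sign is not a measure of lipolysis. The most abundant were the fatty acid carrier Fabp4 (548 CPM), the triglyceride lipase Pnpla2 (235) and the monoglyceride lipase Mgll (131). In OVX-HA against OVX-PBS all 10 differences were below 0 with a median of -0.39, beside a median of 0.01 over all genes, and 0 of 10 passed. The largest of the 10 was that of G0s2 (-0.67). Fabp4 read 447 ± 251 CPM in OVX-HA (n = 3) against 660 ± 222 in OVX-PBS (n = 3), a difference of -0.56, and Pnpla2 189 ± 83 against 262 ± 74, a difference of -0.47. Of the adipocyte markers 6 of 7 were below 0 in that comparison, with a median of -0.36, and the lipolysis list shares Plin1, Fabp4 and Cidec with them. In OVX-HA against OVX-PBS all 5 brown fat markers were below 0 too, with a median of -0.54. So were all 11 neutrophil, 8 macrophage, 6 osteoclast, 4 muscle, 4 B cell and 3 lymph node markers. All 6 nervous system markers were above 0, and the osteoblast and osteocyte, microglia, eosinophil and keratinocyte lists were mixed. The lipolysis median was 0.09 in OVX-PBS against sham, with 2 of 10 below 0. Against OVX-PBS it was -0.13 in OVX-PPA and -0.26 in OVX-ZA, with 9 of 10 below 0 in each. In OVX-HA against OVX-PPA it was -0.26, with 10 of 10 below 0. The part of fat content in these list values was not tested.

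Of 11 carboxylate transport genes 9 were tested. Bsg, the chaperone of monocarboxylate transporters, averaged 400 CPM, the lactate carriers Slc16a1 and Slc16a3 averaged 151 and 59.8, and the list's medians ran from 0.02 to 0.18. Of 11 genes that make or use the ligands 10 were tested, led by the lactate dehydrogenase Ldha (808 CPM), the ketone body enzyme Oxct1 (351) and Ldhb (277). Their medians were 0.16 in OVX-PBS against sham, and -0.25 after HA, -0.22 after 3-3-PPA and -0.18 after ZA, each against PBS, with 8, 2, 2 and 3 of 10 above 0. Ldhb read 320 ± 45 CPM in OVX-PBS (n = 3), 255 ± 51 in OVX-HA (n = 3) and 245 ± 24 in OVX-ZA (n = 3), differences of -0.33 and -0.38 that did not pass the test.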

How the data were processed

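Poly(A) RNA of 14 tibia libraries was read as single reads of 75 nt, per the labels' protocols. The tools STAR 2.7.8a, Bowtie2 2.2.5, CASAVA 1.8.1 and Partek and the build mm10 appear, without role or order, among the submitters' processing notes. Counting tool, annotation and strand use were not given in the sources used here. The authors deposited estimated counts per gene symbol, not normalized, of which 20.7% departed from a whole number by over 0.01. A second deposited table, on a log2 scale, was not used.

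Estimated counts were rounded, filtered by group (edgeR filterByExpr; 21761 genes kept) and scaled by TMM. A single quasi-likelihood fit of all 14 libraries (in R 4.3.3 with edgeR 4.0.16), with a mean per group, 9 residual degrees of freedom and a common biological CV of 25.0%, gave 5 two-sided comparisons and a joint F test. Each was adjusted by Benjamini-Hochberg over all genes at an FDR of 0.05. The fit was tested on simulated data. Log2 CPM used a prior count of 2, and GENCODE M21 gave lengths and positions (53292 of 55291 symbols, 96.4%, were found). Intervals are 95% intervals.

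The members, gene lists and tests were chosen with earlier results of these data known. All 6 receptors were named, the 3 most abundant genes of each pathway list, and the 5 genes most like each testable receptor, by the smaller of Pearson's r over 14 libraries and over those with Mobp of at least 50 CPM. Predicted genes were skipped. Alternatives were DESeq2 1.42.0, other size factors, no filter, the compared groups alone, a replicate block, each library left out, the libraries low in Mobp left out and, after seeing the data, the Glycam1 libraries left out, an adipocyte covariate and another length of Ffar1. The labels do not say that replicate numbers pair libraries. Same-numbered libraries of different groups correlated in their deviations with r from -0.55 to 0.43 (26 pairs, median 0.018). Differently numbered ones correlated with r from -0.55 to 0.66 (52 pairs, median 0.013). Deviations within a group sum to 0, which ties these values together, so they cannot decide whether the numbers pair libraries.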

Additional observations from a re-analysis of the deposited data

How the results depend on the processing

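No receptor passed the FDR of 0.05 in any comparison under any alternative run, with edgeR or DESeq2. The count of all genes called was 0 in 5 comparisons and 1 in the joint test, and moved as follows. DESeq2 called 1 gene in OVX-PBS against sham, 32 in OVX-ZA against OVX-PBS and 50 in the joint test. Without a filter on low counts there were 3 in OVX-ZA against OVX-PBS and 5 in the joint test, and with the compared groups alone 1 in OVX-ZA against OVX-PBS. Without the libraries low in Mobp these were 6 and 5. With the replicate block, without the Glycam1 libraries and with the adipocyte covariate the joint test called 0. Leaving out each library in turn gave 0 to 1 in OVX-ZA against OVX-PBS and 0 to 7 in the joint test, the highest without OVX-HA replicate 2. With 1 OVX-PPA or OVX-ZA library left, the lone sample is assumed to vary like the other groups.

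Of 340 receptor differences under an alternative, 43 took another sign and 297 did not. Ffar2 in OVX-PPA against OVX-PBS, near 0 throughout, read a log2 of 0.0056 with DESeq2, 0.0055 with its size factors in edgeR, 0.016 without a filter, 0.022 with the compared groups alone and 0.013 without the libraries low in Mobp. With the replicate block, Ffar2 in OVX-HA and Hcar2 in OVX-PPA each differed from OVX-PBS by -0.022, and Ffar1 in OVX-HA against OVX-PPA by -0.0051. The replicate block changed no call on a receptor. Without the libraries low in Mobp, Ffar2 in OVX-HA differed by -0.48 from OVX-PBS and -0.49 from OVX-PPA, and Ffar1 in OVX-HA by -0.28 from OVX-PPA. Without the Glycam1 libraries, OVX-PBS against sham gave 0.23 for Hcar1 and 0.073 for Ffar4, and OVX-ZA against OVX-PBS gave -0.0053 for Hcar1 and -2.22 for Ffar1. With the adipocyte covariate, Ffar2 in OVX-HA read -0.048 against OVX-PBS and -0.020 against OVX-PPA, Ffar4 there 0.037, and Hcar2 in OVX-ZA 0.069.

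Leaving out each library in turn gave these ranges for receptors whose sign moved. In OVX-PBS against sham they were -0.11 to 0.40 for Hcar2, -0.35 to 0.23 for Hcar1, -0.17 to 0.94 for Ffar1, -0.13 to 0.14 for Ffar2 and -0.24 to 0.072 for Ffar4. In OVX-HA against OVX-PBS they were -0.73 to 0.019 for Hcar1, -0.55 to 0.060 for Ffar1 and -0.47 to 0.25 for Ffar2. In OVX-PPA against OVX-PBS they were -0.18 to 0.33 for Hcar2, -0.031 to 0.35 for Hcar1, -0.45 to 0.040 for Ffar1 and -0.055 to 0.055 for Ffar2. In OVX-ZA against OVX-PBS they were -0.38 to 0.12 for Hcar2 and -0.81 to 0.65 for Ffar1, and in OVX-HA against OVX-PPA -0.28 to 0.19 for Ffar1, -0.49 to 0.26 for Ffar2 and -0.40 to 0.16 for Ffar4. The cause of these changes was not tested. By CPM without length the order was Hcar1, Ffar2, Hcar2, Ffar4, Ffar1 and Ffar3. The median count of Ffar3 carried a counting CV of 63.2%, and the part of depth in its low counts was not tested.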
